A study of Mus musculus with 18 samples.

Results

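Casp1, Casp11, Casp12 and Gsdmd are the inflammatory caspase and gasdermin genes of a CRISPR library aimed at cell death. They make up 4 of its 76 target genes and 12 of its 252 sgRNAs, with 3 sgRNAs per gene, and were taken by gene name from the deposited count table in all 18 libraries. Casp11 is the older name of the mouse gene that RefSeq lists as Casp4.

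Inflammatory caspases are proteases that start pyroptosis, a lytic form of cell death. Caspase-1 is activated inside inflammasomes and matures the cytokines IL-1β and IL-18, while mouse caspase-11 is activated by cytosolic lipopolysaccharide in the non-canonical inflammasome. Both cut gasdermin D, and the freed amino-terminal fragment forms pores in the plasma membrane. Caspase-12 belongs to the same protein family and has been studied in endoplasmic reticulum stress, and its role is less settled.

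The study asked which knockouts leave tumour cells alive when antibody-directed effector cells attack them in the mouse, and whether loss of ITPK1, an inositol phosphate kinase, alters that set. The cells were sensBa/F3, a Ba/F3 derivative that was attacked here with an IgA antibody to human Her2. Ba/F3 is a mouse pro-B cell line that depends on IL-3. The mice were hCD89-transgenic and so carry the human Fc receptor for IgA. The recovered cells form 4 groups with 4 libraries each: ITPK1-KO cells from mice given anti-hHer2 IgA, ITPK1-KO cells from mice given PBS as vehicle, ITPK1-WT cells from the IgA mice and ITPK1-WT cells from the vehicle mice, all taken by peritoneal lavage 16 h after injection and sorted as viable. ITPK1-KO and ITPK1-WT cells were also sequenced once each before injection.

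All groups carried the same sgRNA library, and each background was 1 transduced pool that was split over the 8 mice. ITPK1-KO cells were 6 pooled clones and ITPK1-WT cells the sensBa/F3 cells they were made from, and the backgrounds were stained with different tracking dyes, so clone history, dye and genotype cannot be told apart. Each mouse received both backgrounds as a mixture, so the 4 mice of an arm are the replicates. Within a background, p-values between arms measure the spread between mice that shared 1 pool. The fits that join both backgrounds hold both libraries of each mouse without a term for the mouse, so their p-values measure the spread between libraries. A fit with the mouse as a block was an alternative. The counts do not read the ITPK1 genotype. An sgRNA level is its share of the reads from surviving sorted cells, in which a cell lost and a cell that divided less cannot be told apart.

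The 3 caspase genes follow each other directly among the protein-coding genes of mouse chromosome 9 (Casp1, Casp4 and Casp12, flanked by Gria4 and Pdgfd), and Gsdmd lies on chromosome 15. The sgRNAs below are those the results turn on, as written in the deposited library file, 5′ to 3′. Capitals in the first pair mark the positions at which those sgRNAs differ, and the others are in lower case throughout.
Casp1 sg-3: tAccatgAgacatGaaTacA
Casp12 sg-2: tGccatgGgacatAaaCacC
Casp12 sg-3: agatgagttactcaaaatag
Casp11 sg-1: tgaagacttaggctacgatg
Casp11 sg-2: acagatttacccaataaagg
Casp11 sg-3: caatgtactgaaattaaagg
Gsdmd sg-3: cagtatacacacattcatgg

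Casp1 sg-3 and Casp12 sg-2 were the most alike of all 25878 pairs of targeting sgRNAs in the library, compared in the same orientation, with 15 of 20 bases identical. Counting from 1 at the 5′ end and giving the base of Casp1 sg-3 first, the differences are A2G, A8G, G14A, T17C and A20C. It was the 1 pair with as few as 5 mismatches, and the median pair had 15. Whether either sgRNA cuts at the target of the other was not tested. All 12 sgRNAs have 20 bases and a GC content between 30% and 60%, and none matches another sgRNA of the library exactly.

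Library totals ran from 317564 to 808586 reads, and the 216 member counts ran from 578 to 4317 reads, so all 12 sgRNAs passed the minimum mean of 10 reads in every fit. Levels are given as normalised CPM, the reads of an sgRNA scaled to a common library size by TMM. The vehicle mice and IgA mouse 5 carry 1 numbering of read files and another is shared by IgA mice 6 to 8 and both uninjected libraries, so a comparison of arms within the same numbering rests on mouse 5 alone on the IgA side. Vehicle libraries came from 2000000 sorted cells each, against 955000 to 2000000 cells in ITPK1-KO and 657000 to 2000000 cells in ITPK1-WT libraries of IgA mice. The ITPK1-WT library of IgA mouse 6 stood apart from those of IgA mice 7 and 8, with chi-square values divided by their degrees of freedom of 5.33 and 5.62, against 2.24 to 3.35 for the other pairs within groups. Member calls that changed without mouse 6 are named below.

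Before injection the 4 genes differed in representation. Casp12 held 1.39% of ITPK1-KO reads (95% exact binomial interval 1.36% to 1.43%), against 1.24% (1.22% to 1.27%) of ITPK1-WT reads. Gsdmd held 1.38% (1.34% to 1.41%) in ITPK1-KO cells and 1.35% (1.32% to 1.38%) in ITPK1-WT cells. Casp1 held 1.18% (1.15% to 1.21%) in ITPK1-KO cells and 1.12% (1.09% to 1.15%) in ITPK1-WT cells. Casp11 was the rarest of the 4, with 0.806% (0.782% to 0.831%) in ITPK1-KO cells and 0.728% (0.706% to 0.751%) in ITPK1-WT cells, and it ranked 68th of 76 genes in both. These intervals cover counting error only, since PCR reads without molecular identifiers are not independent molecules.

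Set against 3 average non-targeting sgRNAs, the Casp12 total was 83.0%, the Gsdmd total 82.0%, the Casp1 total 70.1% and the Casp11 total 48.0% in ITPK1-KO cells. In ITPK1-WT cells the Casp12 total was 73.1%, the Gsdmd total 79.2%, the Casp1 total 65.8% and the Casp11 total 42.7%. The median over the 76 genes was 70.6% in ITPK1-KO and 68.6% in ITPK1-WT cells, so Casp1 lay close to the middle of the library and Casp11 well below it. The representation of a gene mixes how many copies of an sgRNA entered the pool with how its cells grew, and these cannot be told apart.

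Of the 12 sgRNAs, the one least alike between backgrounds before injection was Casp12 sg-3, at 0.381% (0.364% to 0.398%) of ITPK1-KO reads and 0.295% (0.281% to 0.309%) of ITPK1-WT reads. Its log2 difference in share was 0.37. The lowest of the 12 was Gsdmd sg-1, at -0.13. For whole genes the log2 difference was 0.16 for Casp12, 0.15 for Casp11, 0.070 for Casp1 and 0.027 for Gsdmd, beside a median absolute value of 0.053 over the 76 genes. With 1 library per background there is no test of these differences.

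**Figure D1:**
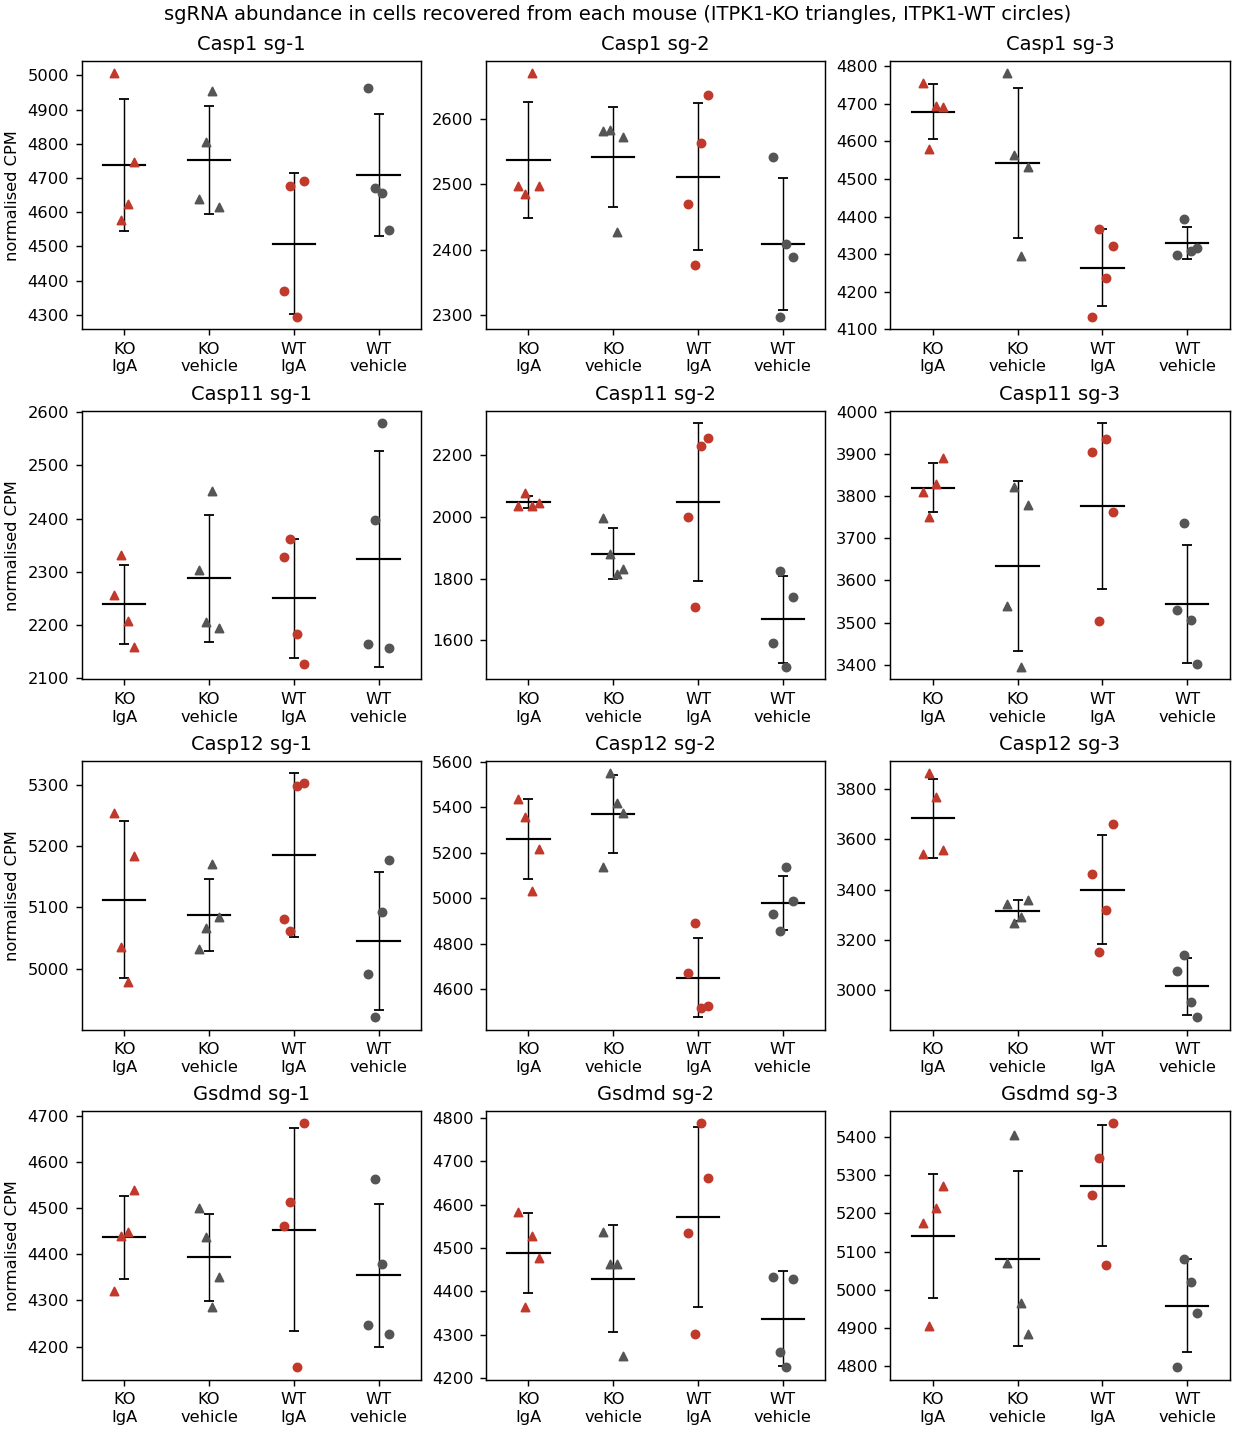
Normalised CPM of each of the 12 sgRNAs (vertical axis, which does not start at 0) in the cells recovered from each mouse, for IgA and vehicle mice in ITPK1-KO cells (triangles) and ITPK1-WT cells (circles). Each point is 1 mouse, the horizontal line is the mean and the bar the SD over 4 mice. All 4 IgA mice lie above all 4 vehicle mice for Casp12 sg-3 in both backgrounds and for Casp11 sg-2 in ITPK1-KO cells.

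The central comparison set IgA mice against vehicle mice within each background, and asked whether cells that carried a knockout were enriched among survivors. In ITPK1-KO cells 1 of 12 member sgRNAs passed the test, Casp12 sg-3, which was higher in IgA mice, while 10.4% of all sgRNAs passed. In ITPK1-WT cells 4 of 12 passed, of which Casp11 sg-2, Casp12 sg-3 and Gsdmd sg-3 were higher and Casp12 sg-2 was lower, while 27.8% of all sgRNAs passed. Summed over its 3 sgRNAs, none of the 4 genes passed in ITPK1-KO cells, where 13.2% of genes did, and Gsdmd and Casp11 passed in ITPK1-WT cells, where 36.8% of genes did. In each background the sgRNA count stands close to what the rest of the library gave. These are adjusted p-values under 0.05 from edgeR's quasi-likelihood test with Benjamini-Hochberg adjustment over all sgRNAs or all genes.

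The shifts were small. Over the 12 sgRNAs the log2 fold change, IgA over vehicle, ran from -0.028 to 0.15 in ITPK1-KO cells with a median of 0.016, beside 0.0094 over all targeting sgRNAs. It ran from -0.098 to 0.28 in ITPK1-WT cells with a median of 0.044, beside 0.0035 over all targeting sgRNAs. The 24 non-targeting sgRNAs had a median of -0.012 in ITPK1-KO and -0.059 in ITPK1-WT cells, so values scaled to them are higher than those given here, above all in ITPK1-WT cells. With that scaling the calls in ITPK1-WT cells over the whole library split into 70 higher and 6 lower sgRNAs, against 35 and 35 under TMM, and those in ITPK1-KO cells into 17 higher and 8 lower, against 14 and 12. The member sgRNAs called in ITPK1-WT cells were then 6 of 12, all higher, with Casp11 sg-3, Casp12 sg-1 and Gsdmd sg-2 added and Casp12 sg-2 lost. Of the member genes 3 of 4 were called, with Casp12 added at 0.069 (edgeR adjusted p 0.00896). Over the library 36 of 76 genes were then called in ITPK1-WT cells, 34 higher and 2 lower.

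With the numbering of read files as a covariate no member sgRNA and no member gene passed in either background in edgeR, where 15 of 251 sgRNAs still passed in ITPK1-KO cells and 17 of 252 in ITPK1-WT cells. The values of that fit are given beside each call below as values within a numbering.

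Casp1 is the caspase that inflammasomes activate through their adaptor. Its 3 sgRNAs together had 12259, 11641, 11987 and 11935 CPM in ITPK1-KO cells of IgA mice, against 12002, 11953, 11675 and 11720 CPM in those of vehicle mice. In ITPK1-WT cells they had 10970, 11420, 11092 and 11649 CPM in IgA mice, against 11804, 11359, 11373 and 11252 CPM in vehicle mice. The arms overlapped in both backgrounds. The log2 fold change was 0.016 (SE 0.019) in ITPK1-KO cells, with an edgeR adjusted p of 0.625, and -0.024 (SE 0.022) in ITPK1-WT cells, with an edgeR adjusted p of 0.386, and the ITPK1-WT value turned to 0.027 when scaled to non-targeting sgRNAs. The 95% interval was -0.024 to 0.056 in ITPK1-KO cells and -0.070 to 0.021 in ITPK1-WT cells. In this fit a change of Casp1 by more than 0.070 in either direction lies outside both. That bound does not carry over to other settings, since within a numbering of read files the ITPK1-WT value was itself -0.068.

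The 3 Casp1 sgRNAs did not share a direction in ITPK1-WT cells, where sg-1 had -0.066, sg-2 had 0.053 and sg-3 had -0.024, nor in ITPK1-KO cells, where the values were 0.00079, -0.0035 and 0.041. None of these passed the test in either background. Without mouse 6, Casp1 sg-1 passed in ITPK1-WT cells as lower in IgA mice, at -0.084 with an edgeR adjusted p of 0.0485.

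Casp11 encodes the cytosolic lipopolysaccharide sensor of mouse cells. Its 3 sgRNAs together had 8103, 8162, 8073 and 8099 CPM in ITPK1-KO cells of IgA mice, against 7840, 7908, 7660 and 7804 CPM in those of vehicle mice. In ITPK1-WT cells they had 8232, 7573, 8350 and 8148 CPM in IgA mice, against 7286, 7960, 7599 and 7299 CPM in vehicle mice. The arms did not overlap in ITPK1-KO cells, as for 22.4% of genes, and they overlapped in ITPK1-WT cells through IgA mouse 6 alone.

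The log2 fold change of Casp11 was 0.056 (SE 0.023) in ITPK1-KO cells, which did not pass in edgeR (adjusted p 0.122), and 0.094 (SE 0.034) in ITPK1-WT cells, which passed (edgeR adjusted p 0.0329). This amounts to 3.98% more reads in IgA mice in ITPK1-KO cells and 6.70% more in ITPK1-WT cells. The mean log2 CPM over the 3 sgRNAs, tested in limma, gave the opposite calls: 0.058 passed in ITPK1-KO cells (limma adjusted p 0.0248) and 0.11 did not pass in ITPK1-WT cells (limma adjusted p 0.0609). Leaving out mouse 1, 4, 5, 7 or 8 ended the edgeR call in ITPK1-WT cells, with an adjusted p of up to 0.139, and without mouse 6 the value was 0.13 with an adjusted p of 0.000518. Within a numbering of read files the values were 0.052 in ITPK1-KO cells (edgeR adjusted p 0.538) and 0.12 in ITPK1-WT cells (edgeR adjusted p 0.188).

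In ITPK1-WT cells most of the Casp11 shift came from 1 of its sgRNAs. Casp11 sg-2 had 2036, 2079, 2035 and 2047 CPM in ITPK1-KO cells of IgA mice, against 1998, 1881, 1815 and 1831 CPM in those of vehicle mice. In ITPK1-WT cells it had 1999, 1707, 2231 and 2258 CPM in IgA mice, against 1593, 1825, 1513 and 1741 CPM in vehicle mice. In ITPK1-KO cells every IgA mouse lay above every vehicle mouse, as for 12% of sgRNAs in either direction, and in ITPK1-WT cells 3 of 4 IgA mice did. The exception was mouse 6, which is also the IgA mouse from which the most ITPK1-WT cells were sorted (2000000, against 657000 to 1200000 for the other 3), and the part of cell number in the result was not tested.

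The log2 fold change of Casp11 sg-2 was 0.13 (SE 0.053) in ITPK1-KO cells, with an edgeR adjusted p of 0.134, and 0.28 (SE 0.069) in ITPK1-WT cells, with an edgeR adjusted p of 0.00143. The ITPK1-WT value, which is 21.7% more reads, was the highest of the 12 sgRNAs in either background. It passed after removal of any 1 mouse, between 0.23 and 0.37, and within a numbering of read files it was 0.25 (edgeR adjusted p 0.197). Casp11 sg-3 had 0.067 in ITPK1-KO cells (edgeR adjusted p 0.292) and 0.084 in ITPK1-WT cells (adjusted p 0.118), but without mouse 6 it passed in ITPK1-WT cells at 0.13 (adjusted p 0.0106), and scaled to non-targeting sgRNAs at 0.14 (adjusted p 0.0122). Casp11 sg-1 had -0.021 in ITPK1-KO cells (adjusted p 0.864) and -0.045 in ITPK1-WT cells (adjusted p 0.586), and its ITPK1-WT value was 0.0060 when scaled to non-targeting sgRNAs.

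The range over the 3 Casp11 sgRNAs in ITPK1-WT cells was 0.33, the 4th widest of 76 genes, beside a median range of 0.11. In ITPK1-KO cells it was 0.15, the 18th widest, beside a median of 0.090.

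Casp12 is the third caspase of the chromosome 9 group. Its sgRNAs together had 14235, 14254, 13780 and 13957 CPM in ITPK1-KO cells of IgA mice, against 13513, 13886, 13882 and 13822 CPM in those of vehicle mice. In ITPK1-WT cells they had 13215, 13104, 13132 and 13489 CPM in IgA mice, against 13000, 12917, 13181 and 13060 CPM in vehicle mice. The arms overlapped in both. The gene did not pass in ITPK1-KO cells, at 0.031 (SE 0.017, edgeR adjusted p 0.224), or in ITPK1-WT cells, at 0.017 (SE 0.017, edgeR adjusted p 0.423), although scaled to non-targeting sgRNAs the ITPK1-WT value was 0.069 and passed (adjusted p 0.00896).

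Under TMM, the near-level sum in ITPK1-WT cells held sgRNAs called in opposite directions, sg-3 as higher and sg-2 as lower. In ITPK1-KO cells sg-3 alone was called. Casp12 sg-3 had 3544, 3862, 3769 and 3558 CPM in ITPK1-KO cells of IgA mice, against 3345, 3270, 3293 and 3361 CPM in those of vehicle mice. In ITPK1-WT cells it had 3464, 3153, 3319 and 3661 CPM in IgA mice, against 3077, 3142, 2952 and 2893 CPM in vehicle mice. It was the 1 member sgRNA whose arms did not overlap in both backgrounds. Taken singly, 12% of sgRNAs in ITPK1-KO and 22.2% in ITPK1-WT cells had arms that did not overlap. The share of all sgRNAs without overlap in both backgrounds was not counted, so this does not set Casp12 sg-3 apart from the library.

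The log2 fold change of Casp12 sg-3 was 0.15 (SE 0.040) in ITPK1-KO cells, with an edgeR adjusted p of 0.00161, and 0.16 (SE 0.046) in ITPK1-WT cells, with an edgeR adjusted p of 0.00497. The ITPK1-KO call held whichever mouse was left out, and the ITPK1-WT call was lost without mouse 8 (0.13, adjusted p 0.0538). Within a numbering of read files the value was 0.093 in ITPK1-KO cells (adjusted p 0.694) and 0.19 in ITPK1-WT cells (adjusted p 0.112).

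Casp12 sg-2, the sgRNA that resembles Casp1 sg-3, had 5437, 5356, 5033 and 5215 CPM in ITPK1-KO cells of IgA mice, against 5137, 5550, 5418 and 5377 CPM in those of vehicle mice. In ITPK1-WT cells it had 4670, 4890, 4515 and 4524 CPM in IgA mice, against 4932, 4854, 5135 and 4990 CPM in vehicle mice. It was lower in 3 of 4 ITPK1-WT IgA mice than in any vehicle mouse, and mouse 6 again was the exception. The log2 fold change was -0.028 (SE 0.031) in ITPK1-KO cells, which did not pass (edgeR adjusted p 0.650), and -0.098 (SE 0.032) in ITPK1-WT cells, which passed (edgeR adjusted p 0.0156).

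The ITPK1-WT call of Casp12 sg-2 held without mouse 6 and was lost without mouse 3, 7 or 8, with an edgeR adjusted p of up to 0.0805. With any 1 mouse left out the value lay between -0.12 and -0.082. The call was also lost when scaled to non-targeting sgRNAs, where the value was -0.047 (edgeR adjusted p 0.282). Within a numbering of read files it was -0.098 (adjusted p 0.282). Its near neighbour in sequence, Casp1 sg-3, had 0.041 in ITPK1-KO cells (adjusted p 0.528) and -0.024 in ITPK1-WT cells (adjusted p 0.616). Casp12 sg-1 had 0.0095 in ITPK1-KO cells and 0.035 in ITPK1-WT cells and passed in neither, though scaled to non-targeting sgRNAs its ITPK1-WT value was 0.087 and passed (adjusted p 0.0321). The range over the 3 Casp12 sgRNAs was 0.18 in ITPK1-KO cells and 0.26 in ITPK1-WT cells, which ranked 10th in ITPK1-KO and 9th in ITPK1-WT cells among 76 genes.

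Gsdmd encodes the pore-forming substrate of caspase-1 and caspase-11. Its sgRNAs together had 14079, 13710, 14189 and 14287 CPM in ITPK1-KO cells of IgA mice, against 14109, 14305, 13716 and 13486 CPM in those of vehicle mice. In ITPK1-WT cells they had 14245, 14160, 14007 and 14780 CPM in IgA mice, against 13478, 13902, 13623 and 13596 CPM in vehicle mice. The arms overlapped in ITPK1-KO cells. In ITPK1-WT cells all 4 IgA mice lay above all 4 vehicle mice, as in either direction for 30.3% of genes.

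The log2 fold change of Gsdmd was 0.019 (SE 0.020) in ITPK1-KO cells, which did not pass (edgeR adjusted p 0.579), and 0.062 (SE 0.018) in ITPK1-WT cells, which passed (edgeR adjusted p 0.0116). The ITPK1-WT shift of 4.42% kept its side of the threshold whichever mouse was left out, with an adjusted p of at most 0.0498, but not as a mean log2 CPM in limma (0.061, adjusted p 0.0550) or within a numbering of read files (0.055, edgeR adjusted p 0.210). It ranked 15th from the top of 76 genes, and Casp11 ranked 8th.

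Unlike those of Casp11 and Casp12, the 3 Gsdmd sgRNAs all lay above 0 in both backgrounds. In ITPK1-KO cells sg-1, sg-2 and sg-3 had 0.015, 0.023 and 0.018, a range of 0.0087 that was the 75th of 76 genes in width. Their SEs there were 0.034, 0.034 and 0.032, wider than that range, and sg-1 was -0.027 within a numbering of read files. In ITPK1-WT cells the 3 sgRNAs had 0.029, 0.068 and 0.086, a range of 0.057 that was the 66th. How many of the 76 genes have 3 sgRNAs on the same side of 0 in both backgrounds was not counted. Gsdmd sg-3 alone passed, in ITPK1-WT cells, with 5248, 5344, 5065 and 5436 CPM in IgA mice, against 4797, 5080, 5019 and 4938 CPM in vehicle mice (SE 0.031, edgeR adjusted p 0.0276). Its arms overlapped by 1 mouse on each side, and its call was lost without mouse 1, 4 or 8, with an adjusted p of up to 0.113. Within a numbering of read files it was 0.076 (edgeR adjusted p 0.386). Gsdmd sg-2 passed in ITPK1-WT cells without mouse 6, at 0.10 (adjusted p 0.0114), and when scaled to non-targeting sgRNAs, at 0.12 (adjusted p 0.00865).

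**Figure D2:**
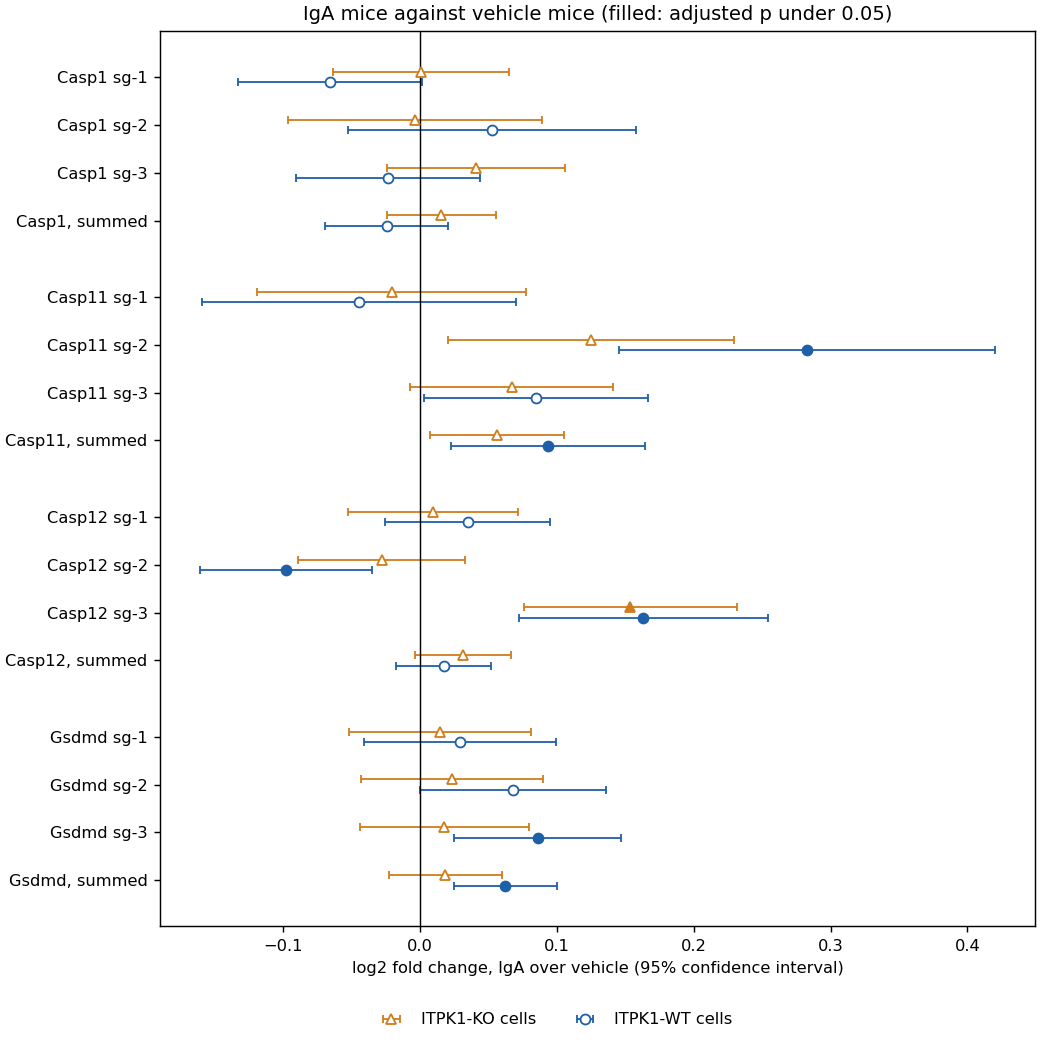
Log2 fold change, IgA over vehicle, with its 95% confidence interval (horizontal axis) for each sgRNA and for the sum over the 3 sgRNAs of each gene, in ITPK1-KO cells (triangles) and ITPK1-WT cells (circles), 4 mice per arm. Filled symbols passed the test. The Gsdmd sgRNAs cluster together while those of Casp11 and Casp12 spread, with Casp11 sg-2 at 0.28 in ITPK1-WT cells.

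Left without mouse 6, 7 of 12 member sgRNAs passed in ITPK1-WT cells while 94 of 252 sgRNAs did, and left without mouse 8, 1 of 12 passed while 48 of 252 did. In ITPK1-KO cells 1 of 12 passed whichever mouse was left out, while 19 to 31 of 251 sgRNAs did.

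The IgA effects of the same sgRNA in both backgrounds come from different libraries of the same mice. They had the same sign for 9 of 12 member sgRNAs (75%) and for 163 of 215 other targeting sgRNAs (75.8%), a share close to that of the members. The Pearson r over the 12 sgRNAs was 0.83, against 0.44 over the 215 others, given as a description, since the arms of both backgrounds share mice and read-file numbering. The r of the members rests on few values, of which Casp11 sg-2 and Casp12 sg-3 lie farthest from 0 in both backgrounds. Whether it differs from that of the others was not tested.

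Whether the IgA effect itself depended on ITPK1 was tested as the difference of the IgA effects, ITPK1-KO minus ITPK1-WT, in 1 edgeR fit of the 16 recovered libraries. None of the 12 member sgRNAs passed, where 3.97% of all sgRNAs did, and none of the 4 genes passed, where 6.58% did. None had an unadjusted p under 0.05 in edgeR either. DESeq2's Wald test also called 0 sgRNAs and 0 genes among the members, while it called 10 of all 252 sgRNAs and 5 of 76 genes. A pass in ITPK1-WT cells alone is thus not shown to differ from ITPK1-KO cells.

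For Gsdmd the difference was -0.050 (95% interval -0.10 to 0.0051, edgeR adjusted p 0.434), and all 3 of its sgRNAs had a lower IgA effect in ITPK1-KO cells. For Casp11 it was -0.043 (-0.13 to 0.045, adjusted p 0.679), for Casp1 0.034 (-0.026 to 0.094, adjusted p 0.605) and for Casp12 0.0084 (-0.040 to 0.057, adjusted p 0.826), and the Casp12 value was -0.023 when scaled to non-targeting sgRNAs. Among sgRNAs the widest difference was that of Casp11 sg-2, at -0.16 (-0.33 to 0.0059, adjusted p 0.461). Without mouse 6, the exception named above for this sgRNA, it was -0.26 and passed (edgeR adjusted p 0.0344). It was then 1 of 12 members to pass, while 17 of 252 sgRNAs did.

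ITPK1-KO and ITPK1-WT cells were also compared with each other inside the same arm, which asks whether the cells with a given knockout were more frequent in one background. These comparisons use the libraries of the IgA comparisons again and are not separate evidence. In IgA mice 3 of 12 member sgRNAs passed, all higher in ITPK1-KO cells, while 34.9% of all sgRNAs passed in either direction and 16.7% as higher. In vehicle mice 3 of 12 passed, all higher in ITPK1-KO cells, while 31.7% passed in either direction and 13.9% as higher. Of the genes, Casp12 and Casp1 passed in IgA mice, where 44.7% of genes did, and Casp12 in vehicle mice, where 47.4% did. DESeq2's Wald test called 4 of 12 member sgRNAs in vehicle mice, with Casp1 sg-3 added at 0.076 (adjusted p 0.0390), while it called 82 of all 252 sgRNAs. Scaled to non-targeting sgRNAs, the calls over the whole library in IgA mice split into 18 higher and 63 lower, against 42 and 46 under TMM.

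Casp12 was higher in ITPK1-KO cells in both arms. With the CPM values given above, every ITPK1-KO library lay above every ITPK1-WT library in IgA mice and again in vehicle mice. In either direction, the backgrounds did not overlap for 42.1% of genes in IgA mice and 46.1% in vehicle mice. The log2 difference was 0.088 (SE 0.017, edgeR adjusted p 2.83e-05) in IgA mice and 0.079 (SE 0.017, edgeR adjusted p 0.000152) in vehicle mice, beside 0.16 before injection. It passed after removal of any 1 mouse.

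Within Casp12 the difference lay with sg-2 and sg-3. Casp12 sg-2 differed by 0.17 (SE 0.031, edgeR adjusted p 1.49e-06) in IgA mice and 0.11 (SE 0.032, adjusted p 0.00305) in vehicle mice, beside 0.10 before injection. Casp12 sg-3 differed by 0.12 (SE 0.041, adjusted p 0.0138) in IgA mice and 0.14 (SE 0.043, adjusted p 0.00659) in vehicle mice, beside 0.37 before injection. Casp12 sg-1 had -0.020 in IgA mice (adjusted p 0.679) and 0.011 in vehicle mice (adjusted p 0.818). The sg-3 call in IgA mice was lost without mouse 6 or 7 (0.058 at the lowest) and when scaled to non-targeting sgRNAs (0.080, adjusted p 0.151), and in vehicle mice sg-2 lost its call without mouse 2 and sg-3 without mouse 4 (adjusted p of at least 0.0956).

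Casp1 was higher in ITPK1-KO cells of IgA mice by 0.083 (SE 0.021, edgeR adjusted p 0.00102), a call that was lost when scaled to non-targeting sgRNAs (0.042, adjusted p 0.160). In vehicle mice it had 0.048 (SE 0.021) and did not pass (edgeR adjusted p 0.0563), whereas with the mouse as a block it was 0.049 and passed (adjusted p 0.0362). Before injection it was 0.070. In IgA mice Casp1 sg-3 carried most of this, with 4755, 4579, 4693 and 4691 CPM in ITPK1-KO cells of IgA mice, against 4132, 4366, 4236 and 4321 CPM in ITPK1-WT cells of the same mice. Those groups did not overlap, as for 29.4% of sgRNAs, and the log2 difference was 0.13 (SE 0.033, edgeR adjusted p 0.000611), beside 0.18 before injection. Casp1 sg-1 had 0.070 in IgA mice and did not pass (edgeR adjusted p 0.0958), but did without mouse 6, at 0.11 (adjusted p 0.0176). The most alike sgRNAs in sequence, Casp1 sg-3 and Casp12 sg-2, were thus both higher in ITPK1-KO cells of IgA mice. Casp12 sg-3 passed as higher there as well, and the alike sgRNAs already had a higher share in ITPK1-KO cells before injection. Whether sequence plays a part was not tested.

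Casp11 and Gsdmd as genes did not pass between backgrounds in either arm. Casp11 had 0.0095 (edgeR adjusted p 0.787) in IgA mice, which turned to -0.032 when scaled to non-targeting sgRNAs, and 0.053 (adjusted p 0.158) in vehicle mice, beside 0.15 before injection. Gsdmd had -0.023 (adjusted p 0.333) in IgA mice, which became -0.064 and passed when scaled to non-targeting sgRNAs (adjusted p 0.0166), and 0.027 (adjusted p 0.248) in vehicle mice. Casp11 sg-2 was higher in ITPK1-KO cells of vehicle mice by 0.17 (SE 0.061, adjusted p 0.0194), a call lost without mouse 1 or 3 (adjusted p up to 0.203), and had 0.010 in IgA mice (adjusted p 0.910).

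**Figure D3:**
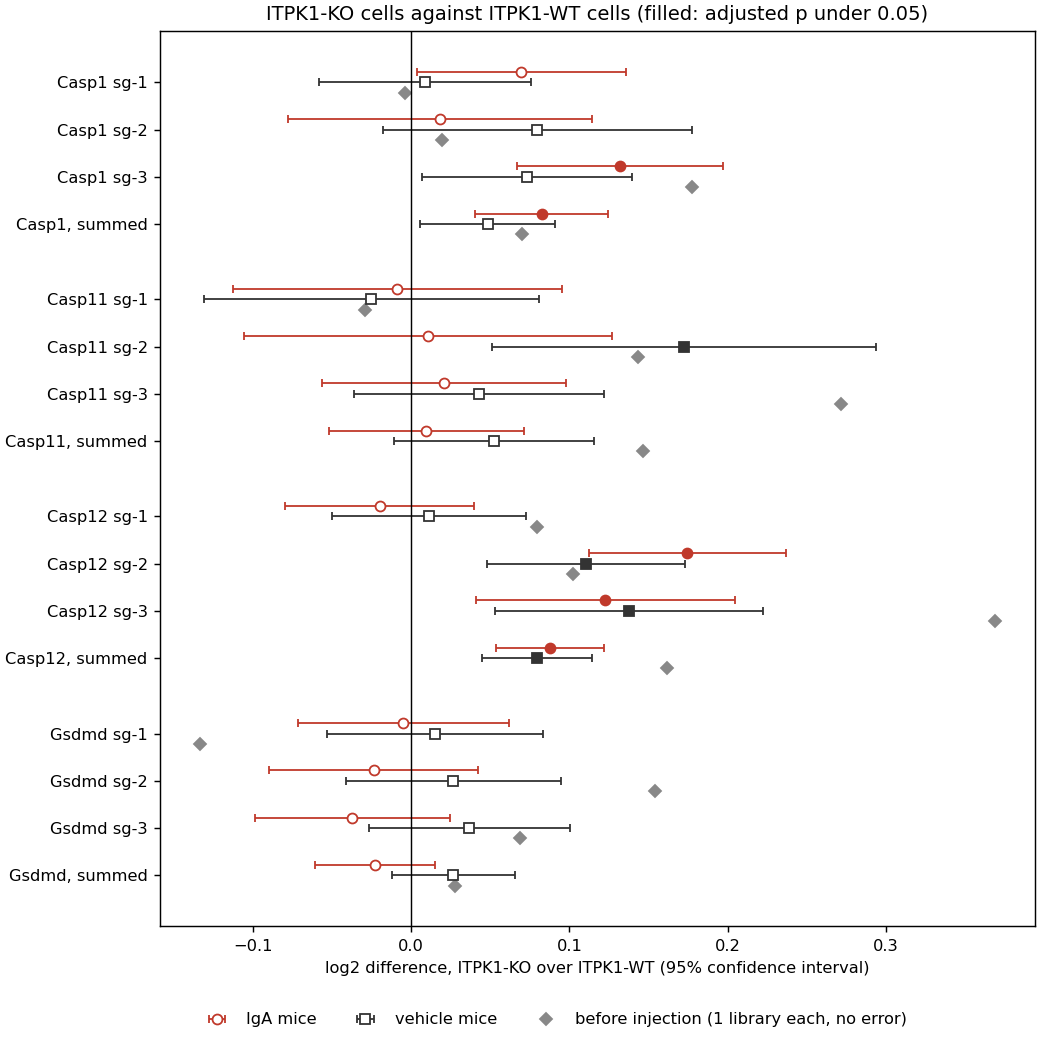
Log2 difference, ITPK1-KO over ITPK1-WT (horizontal axis), with its 95% confidence interval in IgA mice (circles) and vehicle mice (squares), 4 mice each, and in the libraries from before injection (diamonds, 1 library per background, no error). Filled symbols passed the test. Casp12 sg-2 and sg-3 passed in both arms, and Casp12 sg-3 before injection, at 0.37, lies to the right of both.

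Each recovered library was also set against the library of its background from before injection, as a log2 ratio of shares from which the median non-targeting value was subtracted. In ITPK1-KO cells of IgA mice the 4 genes averaged between 0.0018 and 0.028, and in those of vehicle mice between -0.054 and 0.0070. In ITPK1-WT cells of IgA mice Casp11 averaged 0.21 ± 0.078, Casp12 0.17 ± 0.044, Gsdmd 0.16 ± 0.052 and Casp1 0.093 ± 0.058 (SD, n = 4), all above 0 in 4 of 4 mice. In ITPK1-WT cells of vehicle mice Casp11 averaged 0.038 ± 0.064, Casp12 0.077 ± 0.013, Gsdmd 0.035 ± 0.022 and Casp1 0.046 ± 0.042 (SD, n = 4). There too Casp12, Gsdmd and Casp1 lay above 0 in 4 of 4 mice, and Casp11 did in 2. The share of all genes above 0 in 4 of 4 mice was not counted, so these counts set the members apart from no other gene.

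With that correction the mean change in ITPK1-WT cells was farther from 0 in IgA mice than in vehicle mice for each of the 4 genes. Over all targeting sgRNAs in ITPK1-WT cells the median absolute change was 0.12 in IgA mice and 0.049 in vehicle mice. In ITPK1-KO cells that median was 0.050 in IgA mice and 0.041 in vehicle mice. Without the non-targeting correction the ITPK1-WT values were 0.14 in IgA mice and 0.020 in vehicle mice for Casp11, 0.099 in IgA mice and 0.058 in vehicle mice for Casp12, and 0.085 in IgA mice and 0.016 in vehicle mice for Gsdmd. For Casp1 the order turned, with 0.022 in IgA mice and 0.027 in vehicle mice. All values of a background share its 1 library from before injection, whose read-file numbering is that of IgA mice 6 to 8, so there is no test and numbering and arm cannot be told apart.

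Casp12 sg-3 stood out in ITPK1-KO cells, where it averaged -0.054 ± 0.064 in IgA mice and -0.21 ± 0.011 in vehicle mice (SD, n = 4). All 4 vehicle mice lay below 0, between -0.22 and -0.20. These ratios share the same ITPK1-KO library from before injection, so their SD leaves out the error of that library. There the share of Casp12 sg-3 exceeded that in ITPK1-WT cells by a log2 difference of 0.37. Whether a high value in that library accounts for the fall was not tested. How many of all sgRNAs lay below 0 in all 4 vehicle mice was not counted. In ITPK1-WT cells Casp12 sg-3 averaged 0.27 ± 0.11 in IgA mice and 0.047 ± 0.064 in vehicle mice.

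Other genes of the caspase family, of pyroptosis and necroptosis and of the cytokine receptors that feed them were taken from a list of 35, of which the library targets 15. In ITPK1-KO cells, where 13.2% of all genes passed between IgA and vehicle mice, 1 of the 15 did, Ripk1, a kinase of the TNF receptor complex, at -0.26 (SE 0.022, edgeR adjusted p 5.38e-08). In ITPK1-WT cells, where 36.8% of all genes passed, 3 of the 15 were higher in IgA mice and 4 lower. The higher ones were Ripk3 (0.082), a kinase of necroptosis, the TNF receptor Tnfrsf1a (0.061) and Casp9 (0.052), the initiator caspase of mitochondrial apoptosis. The lower ones were Fadd (-0.14), an adaptor of death receptors, CASP2 (-0.091), the nucleic acid sensor Zbp1 (-0.083) and Ripk1 (-0.072). The median over the 15 was 0.012 in ITPK1-KO and -0.0063 in ITPK1-WT cells.

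Casp8, which can cleave gasdermin D in macrophages whose kinase TAK1 is blocked, had -0.0039 in ITPK1-KO cells (edgeR adjusted p 0.904) and -0.032 in ITPK1-WT cells (adjusted p 0.181). Zbp1 had 0.013 in ITPK1-KO cells (adjusted p 0.657), and its IgA effect of ITPK1-KO cells exceeded that of ITPK1-WT cells by 0.090 (SE 0.025, adjusted p 0.0155). Ripk1 was the other gene of the list whose IgA effect differed, at -0.19 (SE 0.031, adjusted p 5.86e-06). The IgA effect of no inflammatory caspase and not that of Gsdmd was shown to differ in this way.

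Between backgrounds 1 of the 15 was higher and 5 lower in ITPK1-KO cells of IgA mice, where 44.7% of all genes passed. Zbp1 (0.057) was the higher one, and the lower ones included Ifnar1 (-0.15), a subunit of the type I interferon receptor, Ripk1 (-0.073) and Ifngr2 (-0.055). In vehicle mice, where 47.4% of all genes passed, 2 were higher, Ripk1 (0.12) and Ifngr1 (0.049), and 4 lower, among them Ifnar1 (-0.18) and Fadd (-0.11).

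Over the 16 recovered libraries, with each background centred on its own mean, the summed log2 CPM of Casp11 was most like that of Sycp2 (Pearson r 0.81) and APAF1 (0.81), of the 75 other genes. Gsdmd was most like Kcnip1 (0.66) and Ltbr (0.65), and Casp1 most like Dpysl4 (0.51) and Tnfrsf21 (0.45). Among the 4 genes themselves r was highest between Casp11 and Gsdmd, at 0.62, and lowest between Casp1 and Casp11, at -0.29. These values describe libraries that share mice, arms and depth.

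The authors' deposited table for ITPK1-KO cells lists 12 of 252 sgRNAs with an FDR under 0.05, none of them from the 4 genes. Of the members, Casp12 sg-3 has the lowest p in the authors' deposited table, 0.0124, with an FDR of 0.209 and a log2 fold change of 0.16. The authors' deposited table for ITPK1-WT cells lists 0 of 252 sgRNAs under 0.05, with an FDR of 0.998 throughout. Its highest log2 fold change among the members, 0.40, is that of Casp11 sg-2 (p 0.128 in the authors' deposited table). The sign in the authors' deposited table equals that of the edgeR value for 11 of 12 members in ITPK1-KO cells and for 10 of 12 in ITPK1-WT cells.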

How the data were processed

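Per the file headers, the authors deposited a table of raw counts (whole reads per sgRNA), for each background MAGeCK output holding log2 fold changes with their p-value and FDR, and a legend with another unit, cells sorted per library, which also gives the treatment of each mouse. Per the series' design text, reads with mismatches to the sgRNA library were removed and MAGeCK 0.5.6 scored the counts. No aligner is named in the sources used here, and 4 columns of joined values were not used. The 76 gene names were matched to RefSeq (GRCm38.p6), which gave names, chromosomes and gene order only, since the files name no build. Sequences are those of the deposited library file.

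sgRNAs averaging 10 reads or more were kept, and their counts were scaled by TMM and tested with edgeR 4.0.16 (R 4.3.3, glmQLFit and glmQLFTest), with Benjamini-Hochberg adjustment over the whole library and a threshold of 0.05. Gene values are fits of counts summed over 3 sgRNAs. IgA effects were fitted per background with the arm as the only term, and other comparisons in 1 fit of 16 libraries without a term for the mouse. Change from before injection used shares with 0.5 reads added. Typical variation between mice was 2.83% in ITPK1-KO and 3.17% in ITPK1-WT cells for an sgRNA (edgeR's biological coefficient of variation). No libraries of a group were duplicates (chi-square test of counts). The scripts were tested on simulated data.

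Alternatives were DESeq2 1.42.0 (size factors, Wald test), library totals, non-targeting scaling, other count filters, limma 3.58.1 on mean log2 CPM (prior count 2), a joint fit, the numbering of read files as a covariate, the mouse as a block, 5 reads added, and each mouse left out. Libraries with the same mouse number come from the same animal. Over the 238 sgRNAs averaging 500 reads or more, their deviations from the group means correlated at -0.083 to 0.26. All 12 sgRNAs and 4 genes are given, with partner genes past the threshold, Casp8 and Zbp1, and the 2 genes most like each member. The genes and lists were chosen with earlier results of these data known. Values of some genes outside the 4 members, and the genes most like Casp12, are not reported here.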

Additional observations from a re-analysis of the deposited data

Results flagged for a closer look

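Among 64 groups of 4 mice (12 sgRNAs and 4 gene sums in 4 groups), 2 held a mouse far from the other 3, judged by Dixon's 95% critical value. Chance flags about 1 in 20 groups. Casp1 sg-2 had 2670 CPM in ITPK1-KO cells of IgA mouse 7, against 2485 to 2497 CPM in the other 3 IgA mice, a gap of 0.931 of the range. The same sgRNA had 2427 CPM in ITPK1-KO cells of vehicle mouse 3, against 2573 to 2584 CPM in the other 3 vehicle mice, a gap of 0.932 of the range. Vehicle mouse 3 gave the library with the fewest reads of the series, 317564, and the part of depth in its value was not tested.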

How the results depend on the processing

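With the numbering of read files as a covariate, which leaves IgA mouse 5 to stand for its arm, member sgRNAs called between IgA and vehicle mice numbered 0 in ITPK1-KO cells (main value 1) and 0 in ITPK1-WT cells (main value 4), and member genes called in ITPK1-WT cells 0 (main value 2). Calls over the whole library fell to 15 sgRNAs and 5 genes in ITPK1-KO cells, against 26 and 10 without the covariate, and to 17 sgRNAs and 10 genes in ITPK1-WT cells, against 70 and 28. Mean log2 CPM in limma called 1 member gene in ITPK1-KO cells (main value 0), where 11 of 76 genes passed. In ITPK1-WT cells it called 0 (main value 2), where 21 of 76 genes passed. In vehicle mice 2 member genes, not 1, passed between backgrounds with DESeq2's size factors, with its Wald test, with library totals and with the replicate block, through Casp1. Of all 76 genes, 38 passed with the replicate block and 36 with each of the others. The replicate block, which keeps the mouse as a term, changed no other call of a member. The causes were not tested.

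With each mouse left out in turn, member sgRNAs called between IgA and vehicle mice ranged from 1 to 7 in ITPK1-WT cells and were 1 throughout in ITPK1-KO cells. Member genes called ranged from 1 to 2 in ITPK1-WT cells and were 0 throughout in ITPK1-KO cells. The same fits called 45 to 94 of 252 sgRNAs and 17 to 32 of 76 genes in ITPK1-WT cells. In ITPK1-KO cells they called 19 to 31 of 251 sgRNAs and 9 to 13 of 76 genes. For the difference of IgA effects 0 to 1 member sgRNAs were called, beside 8 to 17 of 252 sgRNAs. Between backgrounds 2 to 3 member sgRNAs passed in either arm, with 2 member genes in IgA mice and 1 to 2 in vehicle mice. Beside these, 63 to 87 of 252 sgRNAs and 27 to 34 of 76 genes passed in IgA mice. In vehicle mice 69 to 85 of 252 sgRNAs and 29 to 38 of 76 genes did. Over the whole library, leaving out mouse 7 gave 45 sgRNAs and 17 genes between IgA and vehicle mice in ITPK1-WT cells, and leaving out mouse 6 gave 17 sgRNAs for the difference of IgA effects (main value 10).

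Scaling to non-targeting sgRNAs reversed 11 values, none of them past the threshold. Between IgA and vehicle mice these were Casp1 sg-2 in ITPK1-KO cells (0.011) and, in ITPK1-WT cells, Casp1 sg-3 (0.028), Casp11 sg-1 (0.0060) and Casp1 summed (0.027). For the difference of IgA effects they were Casp11 sg-1 (-0.015) and Casp12 summed (-0.023). Between backgrounds they were Casp1 sg-2 (-0.023), Casp11 sg-2 (-0.032), Casp11 sg-3 (-0.021) and Casp11 summed (-0.032) in IgA mice, and Casp1 sg-1 (-0.00081) in vehicle mice. Casp1 sg-1 in ITPK1-KO cells, at 0.00079, turned to -0.00070 with library totals, -0.0016 with a mean of at least 500 reads, -0.00016 in DESeq2's Wald test and -0.0013 in the joint fit. The read-file covariate reversed Casp12 sg-2 (0.016) and Gsdmd sg-1 (-0.027) in ITPK1-KO cells.

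Leaving out 1 mouse reversed uncalled values within these ranges. Between IgA and vehicle mice in ITPK1-KO cells they were -0.027 to 0.018 for Casp1 sg-1, -0.034 to 0.0065 for Casp1 sg-2, -0.042 to 0.0081 for Casp11 sg-1, -0.0043 to 0.017 for Casp12 sg-1 and -0.0046 to 0.051 for Gsdmd sg-3, and in ITPK1-WT cells -0.079 to 0.0081 for Casp11 sg-1. For the difference of IgA effects they were -0.017 to 0.053 for Casp11 sg-1, -0.053 to 0.017 for Casp11 sg-3, -0.077 to 0.033 for Casp12 sg-3, -0.0033 to 0.016 for Casp12 summed and -0.057 to 0.0015 for Gsdmd sg-1. Between backgrounds in IgA mice they were -0.0033 to 0.047 for Casp1 sg-2, -0.024 to 0.0020 for Casp11 sg-1, -0.088 to 0.059 for Casp11 sg-2, -0.012 to 0.038 for Casp11 sg-3, -0.029 to 0.023 for Casp11 summed and -0.045 to 0.0082 for Gsdmd sg-1. In vehicle mice they were -0.014 to 0.048 for Casp1 sg-1, -0.063 to 0.0052 for Casp11 sg-1, -0.0012 to 0.024 for Casp12 sg-1 and -0.0075 to 0.031 for Gsdmd sg-1. The lowest member count of 578 reads and the 4 mice per arm limit what small shifts can be told from 0.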
